A study of Homo sapiens with 21 samples.

Results

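The transcripts of 9 genes of the Hippo pathway were followed here in PAR-CLIP data of the RNA-binding protein HNRNPK. The genes were TEAD1, YAP1, WWTR1, LATS1, LATS2, AMOTL1, AMOTL2, CYR61 and CTGF, and their clusters were taken by the gene name that the authors' annotation gives to each cluster. Of 778762 clusters in 4 libraries, 1799 lay in these 9 genes, and clusters were named for 18322 genes in all. In PAR-CLIP, cells incorporate 4-thiouridine (4SU) into RNA, ultraviolet light crosslinks 4SU to the bound protein, and crosslinked positions are then sequenced as C instead of T. A cluster is a group of overlapping reads with such T-to-C changes, called here by PARalyzer.

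MDA-MB-231 cells, a line from a triple-negative breast cancer, were used without further modification (parental) or with a CRISPR/Cas9 knockout of KRT19 (KRT19 KO), the gene of keratin 19. The study asked how keratin 19 bears on the RNA targets of HNRNPK in the cytoplasm. Both lines were labelled with 4SU, HNRNPK was immunoprecipitated, with a second band that the study assigned to a putative isoform (HNRNPJ), and 1 library was made from the cytoplasm and 1 from the nucleus of each line. Whether the KRT19 KO line is a clone or a pool is not given in the sources used here. Each condition is 1 library, so no value has a spread over replicates and conditions were compared without a test. All intervals given are 95% intervals that cover counting error only and take each read as an independent molecule. The study reports removing potential PCR duplicates with unique molecular identifiers. Reads listed as unique made up from 19.0% (KRT19 KO nucleus) to 45.6% (KRT19 KO cytoplasm) of the reads in clusters. Where PCR copies remain among the reads, the intervals are too narrow, and how many remain was not tested.

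The Hippo pathway is a kinase cascade that restrains growth. MST kinases activate LATS1 and LATS2, which phosphorylate the coactivators YAP1 and TAZ (the product of WWTR1) and so keep them in the cytoplasm, while angiomotin-like proteins such as AMOTL1 and AMOTL2 hold the coactivators at cell junctions. Coactivators that are not phosphorylated enter the nucleus and bind TEAD transcription factors, of which TEAD1 is one, and these switch on genes such as CYR61 and CTGF. In breast cancer cells the pathway is known for its effect on growth, adhesion and invasion. HNRNPK binds single-stranded RNA rich in C through its KH domains and acts on splicing, stability and translation.

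The clusters of the parental cytoplasmic library held 5551612 reads, against 6216226 in the KRT19 KO cytoplasmic, 3537577 in the parental nuclear and 3252800 in the KRT19 KO nuclear library. Values below are given in this order unless stated. The 9 genes held 487, 428, 462 and 422 clusters with 21606, 24891, 11985 and 9813 reads, or 3892, 4004, 3388 and 3017 reads per 1000000 reads in clusters (RPM). KRT19 itself had 7 reads in parental cytoplasm, 5 in KRT19 KO cytoplasm and no cluster in either nuclear library, so these data do not check the knockout. The nuclear RNA NEAT1 had 1257, 1267, 2791 and 3551 reads and was higher in the nuclear libraries at lower totals, whereas the nuclear RNA MALAT1 had 1229, 842, 888 and 548 RPM and was higher in the cytoplasmic library of each line. Clusters on the mitochondrial genome took 7078, 46426, 9178 and 37163 RPM and were higher in the KRT19 KO library of each fraction.

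The cytoplasmic libraries stood apart from each other across all genes. Clusters in 3'UTRs held 31.6% of all reads in parental cytoplasm and 47.4% in KRT19 KO cytoplasm, and introns held 42.3% and 23.03%. In the nuclear libraries 3'UTRs held 5.35% and 5.43% and introns 67.0% and 59.7%. How far nuclear RNA in the cytoplasmic fraction enters the values below was not tested. An RPM value rises with the amount of a transcript and with the binding of HNRNPK to each copy, and the 2 cannot be told apart in these libraries.

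The sites that carried most reads are shown next, because they show what kind of RNA was recovered. A site is here a set of clusters of 1 gene on 1 strand, joined over the 4 libraries where they overlap by at least 1 nt. Each line gives up to 30 nt around the mode of the cluster with the most RPM, 5' to 3' on the transcript strand, with T for U and positions on GRCh37 (hg19). Capitals mark runs of 3 or more C. TEAD1, YAP1, AMOTL1 and CYR61 lie on the plus strand and the others on the minus strand. For TEAD1 the 6 leading 3'UTR sites and the 3 leading intronic sites were as follows.
TEAD1 3'UTR site, chr11:12960485-12960514: ttctaccacatccaattaacttacacaCCC
TEAD1 3'UTR site, chr11:12959494-12959523: aaaacttcaCCCCttatccttaacatatat
TEAD1 3'UTR site, chr11:12962180-12962209: tggtcaccatcatCCCtttaatcaactcac
TEAD1 3'UTR site, chr11:12965534-12965563: cctttaattctttaataatacacttaaatt
TEAD1 3'UTR site, chr11:12959166-12959195: tttagttctcttttttccaacataaaattc
TEAD1 3'UTR site, chr11:12965222-12965251: attttttttctccttCCCCtttctttaaga
TEAD1 intron site, chr11:12887255-12887284: tttttCCCtttataaaatttataataaaac
TEAD1 intron site, chr11:12896392-12896421: cttttctttCCCCactCCCCaaaacatttg
TEAD1 intron site, chr11:12708807-12708836: acttatcttatcataccatccataaCCCtc

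For each other gene except AMOTL1 the leading site is shown, with a further site of YAP1 and of CYR61 whose reads came from few libraries.
YAP1 3'UTR site, chr11:102101590-102101619: ttttatatacatacacacaCCCaaacataa
YAP1 3'UTR site, chr11:102103491-102103520: gtgttattttcagtcagggcttcttagatc
WWTR1 3'UTR site, chr3:149238387-149238416: agttaaacataaataaatattctattttca
LATS1 3'UTR site, chr6:149980178-149980207: ctatcttattccaaaactacatctacttct
LATS2 3'UTR site, chr13:21547516-21547545: ttcataattttcattatattattccacata
AMOTL2 3'UTR site, chr3:134075448-134075477: ccacctggagggtttgggagaggagcaaag
CYR61 intron site, chr1:86047562-86047591: aatcttaactttatCCCCttctacctttct
CYR61 3'UTR site, chr1:86048820-86048849: gatgggactcattgtagaaaggaagccttg
CTGF intron site, chr6:132270807-132270836: tcaaacttcctCCCCtcaaaatataaacag

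Runs of C were not shared by all sites shown. They were present in 7 of the 9 TEAD1 stretches and in the leading sites of YAP1, CYR61 and CTGF. The leading 3'UTR sites of WWTR1, LATS1, LATS2 and AMOTL2 held none, and the WWTR1 stretch had 3 C and 12 T among 30 nt. RNase T1, the enzyme used to trim the RNA, cuts after G, and the TEAD1 stretches held at most 2 G. By contrast the AMOTL2 stretch held 13 G, that of the CYR61 3'UTR 10 and that of YAP1 at chr11:102103491-102103520 held 7. Over all 3'UTR clusters of the 9 genes, G made up 11.4% of the bases in parental cytoplasm and 12.6% in KRT19 KO cytoplasm. The whole 3'UTRs of the 9 genes hold from 17.2% G (LATS1) to 23.2% (AMOTL2), with 19.3% in TEAD1. Whether the enzyme bears on this was not tested.

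TEAD1, the DNA-binding factor at the end of the pathway, had the most clusters of the 9 genes. The gene lies on chr11:12695968-12966284 and its 3'UTR of 7515 nt is the longest of the 9. TEAD1 had 188, 196, 178 and 230 clusters with 9031, 11195, 5774 and 6590 reads, equal to 1627 (1593 to 1661), 1801 (1768 to 1835), 1632 (1590 to 1675) and 2026 (1977 to 2075) RPM. The KRT19 KO nuclear library was the highest, and the makeup differed between the fractions. Clusters in the 3'UTR held 53.9% and 65.1% of the TEAD1 reads in the cytoplasm and 14.9% and 12.3% in the nucleus, and introns held 45.6%, 34.3%, 85.1% and 87.5%.

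By number of 3'UTR clusters TEAD1 stood near the top of all genes in each library. It had 36 in parental cytoplasm, rank 2 of 6340 genes with a 3'UTR cluster, and 39 in KRT19 KO cytoplasm, rank 9 of 6801. The nuclear libraries held 13 and 17, rank 12 of 3973 genes and rank 3 of 4084. By 3'UTR reads the ranks were 29, 40, 8 and 3. A long 3'UTR can hold more clusters, and per kilobase of 3'UTR TEAD1 had 4.79, 5.19, 1.73 and 2.26 clusters. Per kilobase its 3'UTR level was 117 RPM in parental cytoplasm against 164 for YAP1, 113 for LATS2, 105 for WWTR1, 52.0 for CYR61, 45.0 for LATS1, 6.62 for CTGF, 5.35 for AMOTL2 and 0.756 for AMOTL1. By this level YAP1 and not TEAD1 came first in parental cytoplasm. In the nuclei TEAD1 came first, with 32.3 RPM per kilobase in parental and 33.1 in KRT19 KO cells against 27.02 and 13.1 for YAP1. No spread over samples is available to say which neighbours in this order differ.

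**Figure D1:**
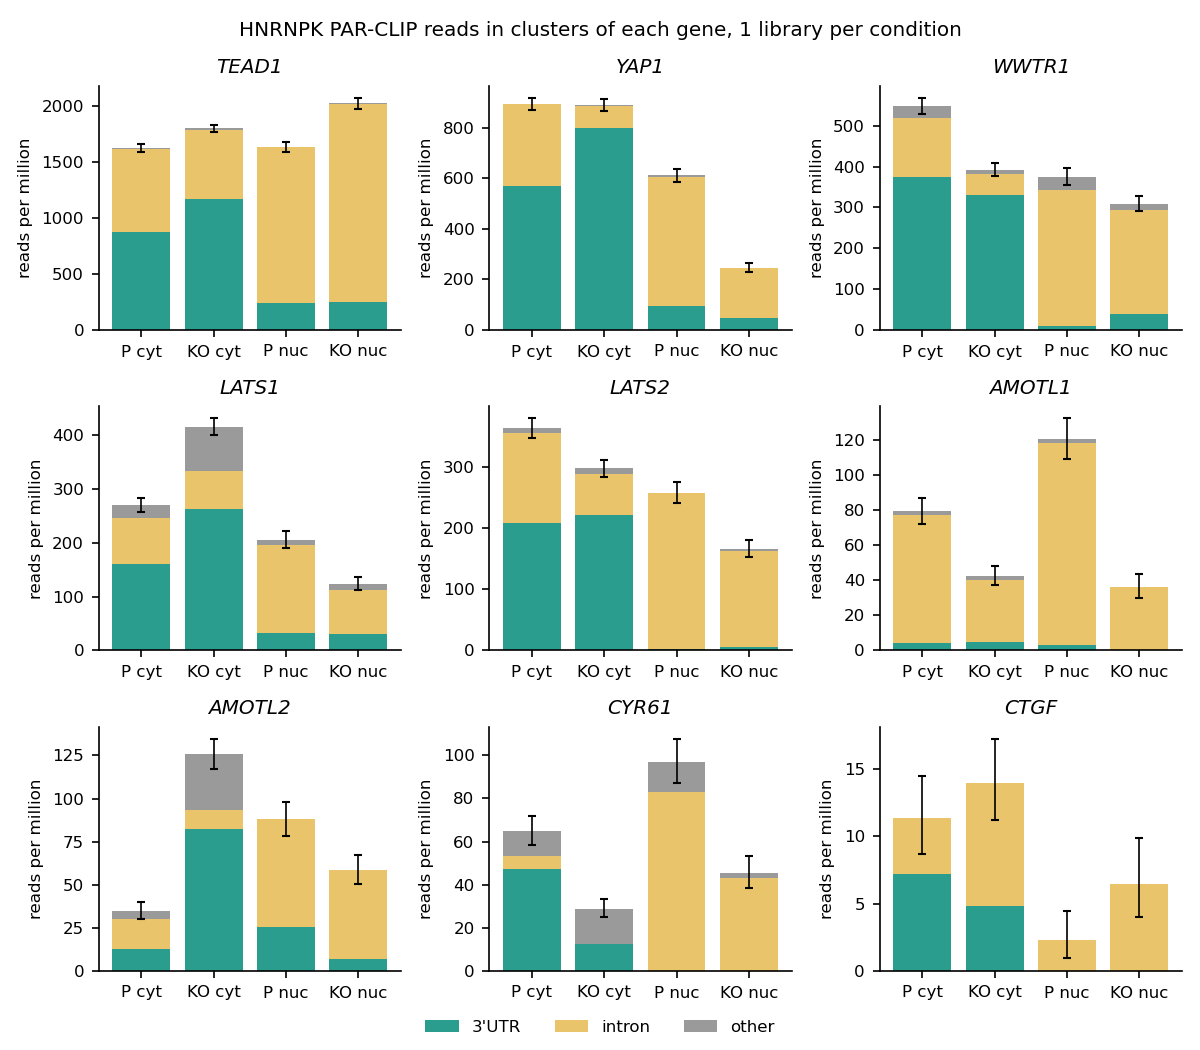
Reads per 1000000 in clusters of each gene (y axis, own scale per panel) in the parental (P) and KRT19 KO (KO) cytoplasmic (cyt) and nuclear (nuc) libraries, split into 3'UTR, intron and other clusters. Bars are single libraries and black lines are exact Poisson 95% intervals of the total; TEAD1 totals lie between 1627 and 2026, with mostly 3'UTR reads in the cytoplasm and mostly intron reads in the nucleus.

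The TEAD1 3'UTR held 59 sites along its whole length, which together covered 28.1% of it. The site with the most reads in parental cytoplasm was centred 1725 nt from the start of the 3'UTR, at chr11:12960454-12960535, and had 1400, 1361, 334 and 262 reads. It was found in all libraries and held 28.8% of the 3'UTR reads in parental cytoplasm. The site centred at 752 nt, chr11:12959494-12959548, had 1284, 2136, 100 and 79 reads and led in KRT19 KO cytoplasm. Its ratio of RPM between KRT19 KO and parental cytoplasm was 1.49 (1.39 to 1.59), while that of the former site was 0.868 (0.805 to 0.936). The intervals of these sites of 1 transcript thus did not overlap, with each read taken as independent. Whether each lies above or below 1 depends on the scaling to library totals, and the median ratio of 3'UTR reads over all genes was 1.63.

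Further along the same 3'UTR, the site at 3431 nt had 331, 666, 98 and 84 reads and the largest ratio of the 6 leading sites, 1.80 (1.57 to 2.06). The site at 6785 nt had 544, 481, 39 and 105 reads with a ratio of 0.790 (0.697 to 0.894), and that at 6473 nt had 239, 281, 10 and 55 reads with 1.05 (0.881 to 1.25). The site at 413 nt had 280 and 380 reads in the cytoplasm and no cluster in the nucleus. Of the 59 sites, 37 had clusters only in cytoplasmic libraries and 7 only in nuclear ones, 32 were found in 1 library and 6 in all 4. These are 62.7%, 11.9% and 54.2% for the first 3 counts, where 3'UTR sites of all genes had 70.0%, 12.6% and 68.0%. A site at 6607 nt with 184 reads was found in the parental nucleus alone, and a site at 689 nt with 84 reads in the KRT19 KO nucleus alone.

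**Figure D2:**
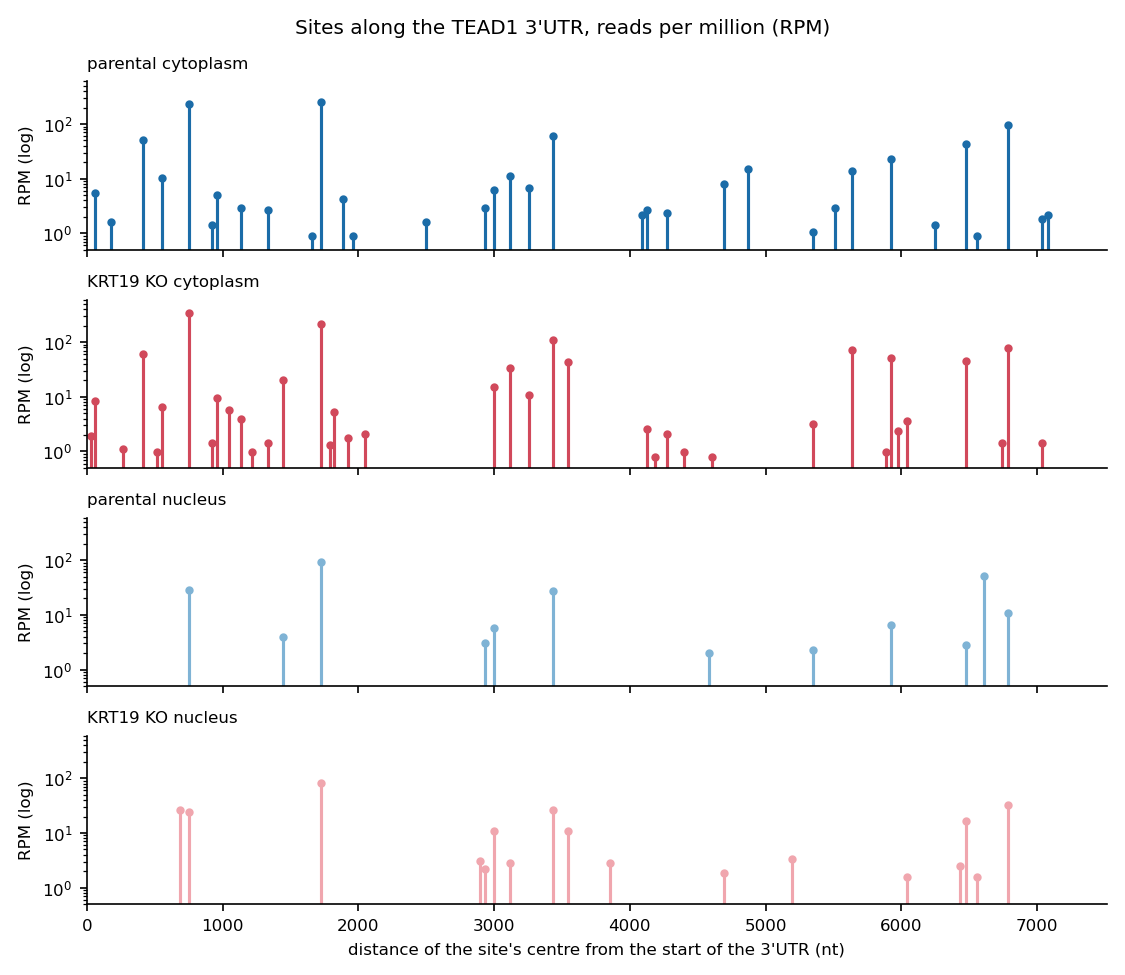
Sites along the TEAD1 3'UTR, with the distance of the centre from the start of the 3'UTR (x axis, nt) and reads per 1000000 on a log scale (y axis) in each of the 4 libraries; a missing line means that no cluster was called. The sites at 752, 1725, 3431 and 6785 nt are present in all 4 panels, and the nuclear panels hold 13 and 17 clusters against 36 and 39 in the cytoplasm.

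Introns carried most TEAD1 sites, 429 of 497. Intron 2, of 88.6 kb, held 156 sites and intron 3, of 97.8 kb, held 140, while intron 5, of 14.8 kb, held 45 and had the higher density at 30.4 sites per 10 kb against 17.6 and 14.3. Reads in intron 5 numbered 1442, 1024, 1453 and 992, those in intron 2 numbered 1331, 1357, 1431 and 2113, and those in intron 3 numbered 636, 803, 1175 and 1728. The leading intronic site, chr11:12887255-12887291 in intron 5, had 495, 343, 476 and 275 reads. A second site of intron 5, chr11:12896386-12896421, had 250, 167 and 355 reads and no cluster in the KRT19 KO nucleus, and one of intron 2, chr11:12708807-12708840, had no cluster in parental cytoplasm and 159, 125 and 155 reads elsewhere. One site that the authors' annotation places in a 3'UTR or its intron lies near the 5' end of the gene, at chr11:12697081-12697126, with 15 reads in parental cytoplasm and 11 in the parental nucleus, and was not counted with the 3'UTR.

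YAP1, the coactivator that partners TEAD1, lies on chr11:101981178-102104155 and had 80, 53, 88 and 43 clusters with 4958, 5523, 2160 and 799 reads. Its levels were 893 (868 to 918), 888 (865 to 912), 611 (585 to 637) and 246 (229 to 263) RPM, so the cytoplasmic libraries were alike in total and the KRT19 KO nuclear library was the lowest. The equal totals hid a different makeup. YAP1 3'UTR reads were 3165 in parental and 4965 in KRT19 KO cytoplasm, while intron reads were 1788 and 549. Intron reads were fewer in KRT19 KO cytoplasm in 7 of the 8 introns, the longest of which, intron 2 of 48.1 kb, had 592 and 189. Intron 8 had no cluster in parental cytoplasm and 19 reads in KRT19 KO cytoplasm. The ratio of RPM between KRT19 KO and parental cytoplasm was 1.40 (1.34 to 1.47) for the 3'UTR and 0.274 (0.249 to 0.302) for introns, where the median over all genes was 1.63 and 0.601. Covered length was 401 nt and 501 nt of the 3'UTR and 2007 nt and 1027 nt of introns, with 7.89 and 9.91 reads per covered nt of the 3'UTR.

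In the YAP1 3'UTR of 3484 nt, the site centred at 936 nt had 954, 1098, 125 and 30 reads and that at 1906 nt had 893, 1265, 29 and 56. Their ratios between the cytoplasmic libraries were 1.03 (0.942 to 1.12) and 1.27 (1.16 to 1.38). The site at 2816 nt, chr11:102103451-102103524, had 1142 reads in KRT19 KO cytoplasm and 114 in the parental nucleus, and no cluster was called there in the other libraries. Of its reads in KRT19 KO cytoplasm 37.5% had a T-to-C change. Without the sites called in 1 of the cytoplasmic libraries only, the YAP1 ratio over all classes was 0.835 (0.798 to 0.873), over 25 sites.

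WWTR1, which encodes TAZ, lies on chr3:149235022-149454501. It had 79, 54, 77 and 58 clusters with 3049, 2436, 1326 and 1006 reads, or 549 (530 to 569), 392 (376 to 408), 375 (355 to 396) and 309 (290 to 329) RPM. Parental cytoplasm was highest. Its leading 3'UTR site, centred at 199 nt, had 994 and 617 reads in the cytoplasm with a ratio of 0.554 (0.501 to 0.614), and 11 and 30 in the nucleus. The sites at 2204 nt, with 556, 592, 10 and 84 reads, and at 2687 nt, with 205 and 288 reads in the cytoplasm only, had ratios of 0.951 (0.846 to 1.07) and 1.25 (1.05 to 1.51). In the nucleus the WWTR1 3'UTR held 38 reads in parental and 124 in KRT19 KO cells, whose ratio of 3.55 (2.45 to 5.25) rests on 3 clusters in each library. It was the 1 of 5 genes with enough nuclear 3'UTR reads to be higher past 2-fold, against 26.7% of all genes. Of the same 5 genes, YAP1 at 0.483 (0.396 to 0.588) and AMOTL2 at 0.263 (0.157 to 0.422) were lower past 2-fold. The lower quartile of this log2 ratio over all 1793 genes was -1.03, itself past 2-fold, so such values were not rare.

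LATS1, a kinase that phosphorylates the coactivators, lies on chr6:149979289-150039241 and had 42, 41, 32 and 25 clusters with 1496, 2577, 726 and 402 reads. Levels were 269 (256 to 283), 415 (399 to 431), 205 (191 to 221) and 124 (112 to 136) RPM, with KRT19 KO cytoplasm highest and the KRT19 KO nucleus lowest. Its 3'UTR sites at 2678 nt and 841 nt had 381 and 467, and 303 and 271, reads in the cytoplasm, with ratios of 1.09 (0.954 to 1.26) and 0.799 (0.676 to 0.944). Much of the higher level in KRT19 KO cytoplasm lay elsewhere. A site of the coding sequence, chr6:149983155-149983187, had 105 reads in parental and 416 in KRT19 KO cytoplasm, and a 3'UTR site at chr6:149980623-149980693 had 286 reads in KRT19 KO cytoplasm and no cluster in parental cytoplasm.

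LATS2, the paralogous kinase, lies on chr13:21547175-21635725 and had 47, 38, 39 and 35 clusters with 2016, 1848, 911 and 539 reads. Levels were 363 (347 to 379), 297 (284 to 311), 258 (241 to 275) and 166 (152 to 180) RPM. A site centred at 1484 nt of its 3'UTR of 1834 nt, chr13:21547506-21547545, had 877 and 1008 reads in the cytoplasm, no cluster in the parental nucleus and 7 reads in the KRT19 KO nucleus. It held 76.1% and 73.1% of the LATS2 3'UTR reads in the cytoplasm, and its ratio was 1.03 (0.937 to 1.13). LATS2 3'UTR reads were nearly all cytoplasmic, with 1153 and 1378 there against 6 and 20 in the nucleus. LATS2 intron reads were 819, 410, 905 and 506, lower in the KRT19 KO library of each fraction. Its leading sites in intron 2 were chr13:21589722-21589755, with 67, 26, 82 and 29 reads, and chr13:21596874-21596907, with 69 and 121 reads in the parental libraries and no cluster in the KRT19 KO ones.

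**Figure D3:**
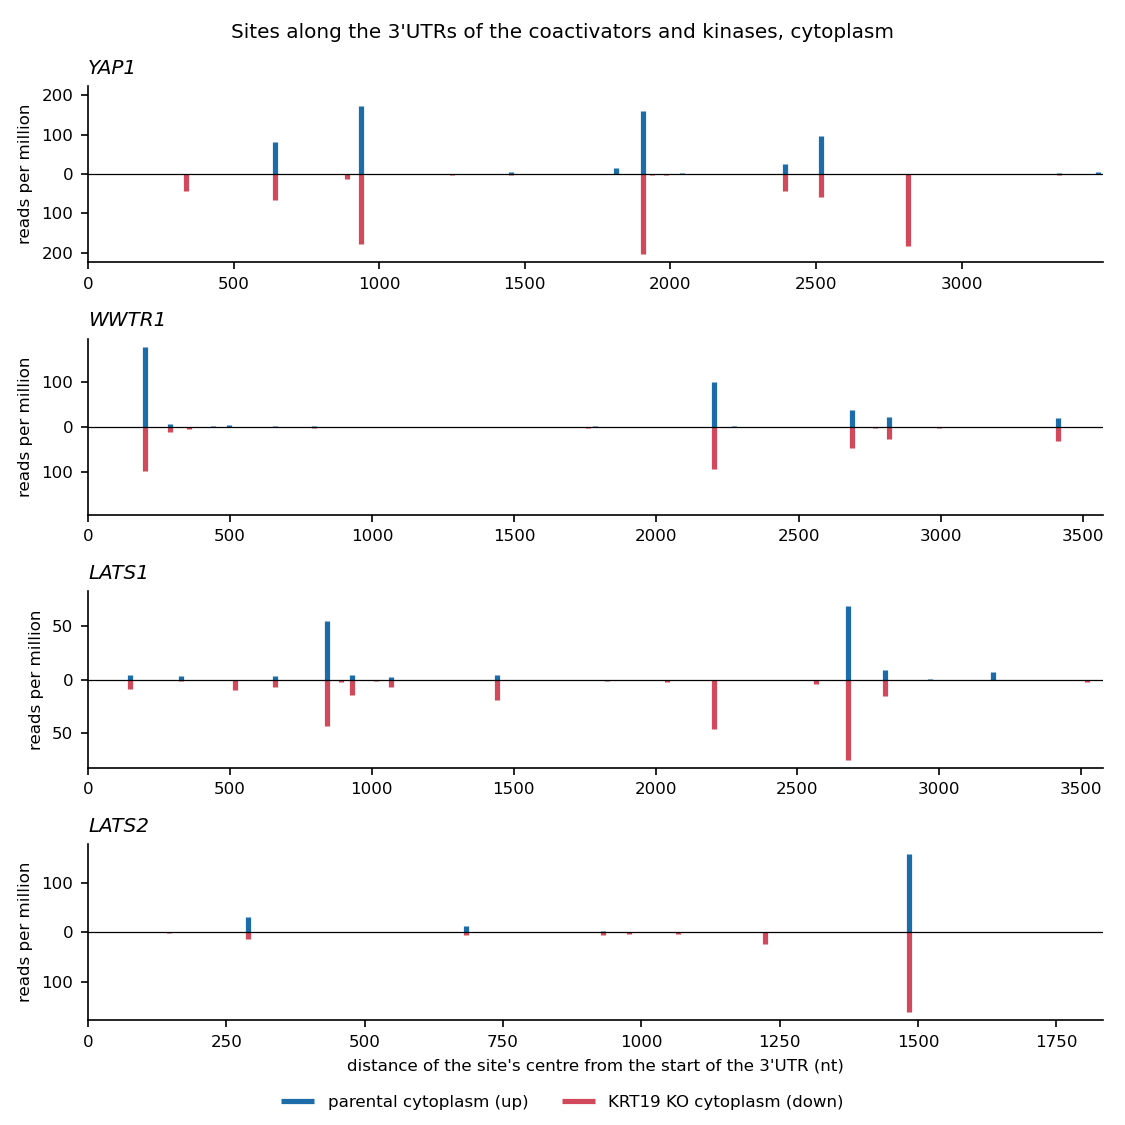
Sites along the 3'UTRs of YAP1, WWTR1, LATS1 and LATS2, with the distance of the centre from the start of the 3'UTR (x axis, nt) and reads per 1000000 in parental (up) and KRT19 KO cytoplasm (down) on the y axis. Most tall lines have a counterpart of like height, whereas the YAP1 site at 2816 nt has 1142 reads in KRT19 KO cytoplasm and none called in parental cytoplasm.

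AMOTL1, a junction protein that binds the coactivators, lies on chr11:94439597-94609913 and was read almost only in introns. It had 26, 16, 21 and 12 clusters with 440, 264, 426 and 118 reads, or 79.3 (72.0 to 87.0), 42.5 (37.5 to 47.9), 120 (109 to 132) and 36.3 (30.03 to 43.4) RPM, lower in the KRT19 KO library of each fraction. Introns held 91.6%, 84.1% and 95.8% of these reads in the first 3 libraries and all of them in the last. Although its 3'UTR is 5953 nt long, 4 sites covered 1.92% of it, the smallest part among the 9 genes.

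AMOTL2, its paralog on chr3:134074189-134094321, had 14, 17, 20 and 13 clusters with 193, 781, 311 and 190 reads. Levels were 34.8 (30.03 to 40.03), 126 (117 to 135), 87.9 (78.4 to 98.2) and 58.4 (50.4 to 67.3) RPM, lowest in parental cytoplasm and highest in KRT19 KO cytoplasm. In the 3'UTR, reads were 70, 512, 91 and 22 over 102, 283, 105 and 52 covered nt. The higher value in KRT19 KO cytoplasm came from sites that had no cluster in parental cytoplasm. These were chr3:134075448-134075485 with 161 reads, chr3:134076423-134076482 with 138 and chr3:134076131-134076173 with 120, and a coding site at chr3:134086514-134086578 with 118. At the 4 sites called in both cytoplasmic libraries AMOTL2 had 82 and 159 reads, a ratio of 1.73 (1.32 to 2.29).

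CYR61 and CTGF, now named CCN1 and CCN2, encode secreted matricellular proteins and are the usual readouts of YAP1 and TAZ activity. CYR61 on chr1:86046444-86050272 had 9, 9, 6 and 5 clusters with 360, 180, 343 and 148 reads, or 64.8 (58.3 to 71.9), 29.0 (24.9 to 33.5), 97.0 (87.0 to 108) and 45.5 (38.5 to 53.4) RPM. It was lower in the KRT19 KO library of each fraction. In the cytoplasm its reads lay mostly in the 3'UTR in parental cells, with 262 of them there against 77 in KRT19 KO cells, and 1 site, chr1:86048820-86048855, had 200 reads in parental cytoplasm and no cluster in any other library. In the nucleus no 3'UTR cluster was called and an intron 2 site, chr1:86047562-86047598, had 212 and 94 reads. A site of intron 1, chr1:86046756-86046787, had 69 and 8 reads in the nucleus and no cluster in the cytoplasm.

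CTGF on chr6:132269316-132272512 was near the limit of detection, with 2, 4, 1 and 1 clusters and 63, 87, 8 and 21 reads, or 11.3 (8.72 to 14.5), 14.0 (11.2 to 17.3), 2.26 (0.976 to 4.46) and 6.46 (3.996 to 9.87) RPM. Only its intron 4 site, chr6:132270807-132270836, was found in all libraries, with 23, 57, 8 and 21 reads. No 3'UTR site of CTGF was called in more than 1 library. Those with the most RPM were chr6:132270236-132270278, with 40 reads in parental cytoplasm, and chr6:132270331-132270354, with 12 in KRT19 KO cytoplasm. Clusters are listed from 5 reads upwards, so a transcript with fewer reads at a position has no cluster and cannot be called unbound.

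Between KRT19 KO and parental cytoplasm, AMOTL2 was higher past 2-fold and CYR61 lower, and the other 7 genes differed by less. The ratio of RPM was 3.61 (3.08 to 4.25) for AMOTL2, 1.54 (1.44 to 1.64) for LATS1, 1.23 (0.882 to 1.73) for CTGF, 1.11 (1.08 to 1.14) for TEAD1, 0.995 (0.957 to 1.03) for YAP1, 0.819 (0.768 to 0.872) for LATS2, 0.714 (0.676 to 0.753) for WWTR1, 0.536 (0.458 to 0.626) for AMOTL1 and 0.447 (0.371 to 0.536) for CYR61. Among all 9378 genes with at least 50 reads in both libraries together, 20.6% were higher by 2-fold or more and 22.4% lower, so 1 of 9 in each direction is no larger a share. The median log2 ratio was -0.01 for the 9 genes and -0.08 for all genes. The ratios were also restricted to sites called in both libraries, a choice made after the values were seen. AMOTL2 at 1.73 and CYR61 at 0.870 (0.628 to 1.21) then no longer passed 2-fold. CTGF did at 2.21 (1.34 to 3.76), on 23 and 57 reads at its intron 4 site. The share of all genes past 2-fold at such sites was not counted, here or in the comparisons below.

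Read by class, 3'UTR and intron reads went in opposite directions across all genes. For 3'UTR reads the median log2 ratio over 4788 genes was 0.70 and that of the 9 genes 0.09. AMOTL2 at 2.71 lay above the median of all genes and LATS1 at 0.70 on it, followed by YAP1 at 0.49, TEAD1 at 0.42, LATS2 at 0.09, AMOTL1 at 0.05, WWTR1 at -0.19, CTGF at -0.58 and CYR61 at -1.93. For intron reads the median was -0.74 over 6399 genes and -0.86 over the 8 genes tested, from -1.87 for YAP1 to 1.146 for CTGF. The TEAD1 3'UTR rested on 1137 covered nt in parental and 1482 nt in KRT19 KO cytoplasm, with 4.28 and 4.92 reads per covered nt.

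**Figure D4:**
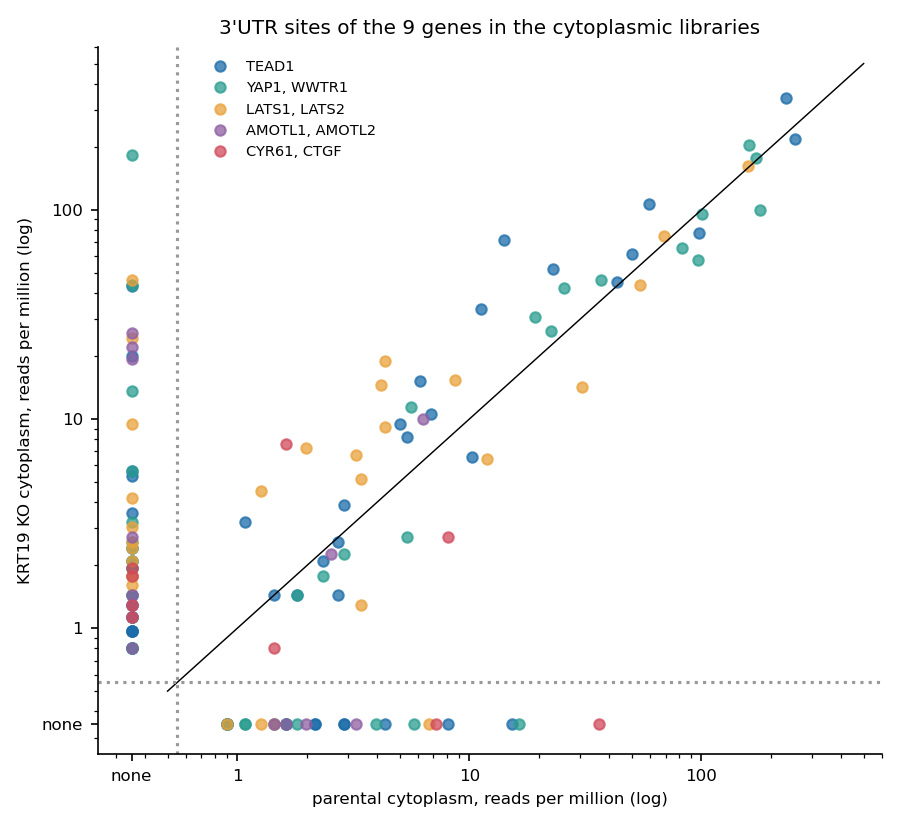
Reads per 1000000 of each 3'UTR site of the 9 genes in parental (x axis) and KRT19 KO cytoplasm (y axis), both on log scales, coloured by gene group; points beyond the dotted lines had no cluster in 1 of the libraries and the diagonal marks equal values. Sites with high values in both libraries lie near the diagonal, while the YAP1 site at 2816 nt (184 RPM) and the CYR61 site at chr1:86048820-86048855 (36.0 RPM) lie beyond the dotted lines.

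Sites with many reads in parental cytoplasm were nearly all found again in KRT19 KO cytoplasm. Of 22 3'UTR clusters of the 9 genes with at least 100 reads in parental cytoplasm, 1 (the CYR61 site named above) had no overlapping cluster in KRT19 KO cytoplasm, against 16.2% of 3107 such clusters over all genes. In the other direction 9 of 32 had no counterpart, against 28.3% of 4986. Those 9 were the 3 AMOTL2 sites, the YAP1, LATS1 and LATS2 sites at chr11:102103451-102103524, chr6:149980652-149980693 and chr13:21547755-21547816, a further YAP1 site at chr11:102100992-102101025 with 271 reads, and TEAD1 sites at chr11:12962292-12962328 with 268 reads and chr11:12960164-12960262 with 124. The share for the 9 genes was thus near that of all genes in this direction. The 9 clusters held 15.1% G, while the 23 with a counterpart held 7.84%. Over all genes the corresponding values were 8.31% and 7.99%, so the gap was not seen there. This comparison was made after the sequences were seen, and whether G content bears on which library holds a cluster was not tested.

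In the nucleus, YAP1, AMOTL1 and CYR61 were lower in KRT19 KO cells past 2-fold and no gene was higher. The ratio between KRT19 KO and parental nucleus was 0.402 (0.370 to 0.437) for YAP1, 0.301 (0.244 to 0.370) for AMOTL1 and 0.469 (0.384 to 0.571) for CYR61, among 8 genes with enough reads. LATS1 had 0.602 (0.532 to 0.681), LATS2 0.643 (0.577 to 0.717), AMOTL2 0.664 (0.552 to 0.798), WWTR1 0.825 (0.759 to 0.896) and TEAD1 1.24 (1.20 to 1.29). TEAD1 was the 1 of these 8 genes above the median of all genes. Over all 9371 genes 18.2% were lower past 2-fold and 14.4% higher, and the median log2 ratio was -0.10 against -0.68 for the 8 genes. With sites called in both nuclear libraries only, CYR61 at 0.473 (0.385 to 0.578) was the sole gene past 2-fold. YAP1 was then at 0.681 (0.609 to 0.761) over 18 sites, and for AMOTL1 1 site with 6 reads in each library was left.

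Nuclear YAP1 reads were lower in KRT19 KO cells in both classes. The 3'UTR held 333 and 148 reads and introns 1810 and 651, over 2343 and 946 covered nt of introns. Intron 5, with 39 and 64 reads, went the other way. TEAD1 intron reads, by contrast, were 4915 and 5769 over 4814 and 5500 covered nt, a ratio of 1.28 (1.23 to 1.33).

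Between the fractions of parental cells, CTGF was higher in the cytoplasm past 2-fold at 5.02 (2.40 to 12.1), on 63 and 8 reads, and AMOTL2 lower at 0.395 (0.329 to 0.475). The call of CTGF ended with unique reads, of which it had 17 and 4, and with a minimum of 200 reads. YAP1 had 1.46 (1.39 to 1.54), WWTR1 1.47 (1.37 to 1.56), LATS2 1.41 (1.30 to 1.53), LATS1 1.31 (1.20 to 1.44), TEAD1 0.997 (0.964 to 1.03), CYR61 0.669 (0.575 to 0.778) and AMOTL1 0.658 (0.575 to 0.754). Of 9590 genes 18.8% were higher past 2-fold and 34.8% lower. The median log2 ratio was 0.39 for the 9 genes and -0.54 for all genes. With 3'UTR reads only, 6 of 7 genes with enough reads were higher in the cytoplasm past 2-fold and AMOTL2 was lower, where 79.0% of all 3584 genes were higher and 5.94% lower and the median of all genes was 7.65-fold. The count of the members is thus near the background. TEAD1 with 3.61 (3.36 to 3.89) and YAP1 with 6.06 (5.41 to 6.80) lay under that median. WWTR1 with 35.0 (25.4 to 49.6) and LATS2 with 122 (56.1 to 334) lay above it. Their percentiles among all genes were 70.1 and 73.2, within the quartiles. The upper quartile had no finite value, as for genes without nuclear 3'UTR reads. CYR61, with 262 reads in the cytoplasm and none in the nucleus, likewise had no finite ratio. With sites called in both fractions only, the genes past 2-fold were others. WWTR1 at 2.13 (1.95 to 2.34) was higher. LATS2 at 0.456 (0.394 to 0.527), AMOTL1 at 0.358 (0.289 to 0.441) and CYR61 at 0.102 (0.0690 to 0.147) were lower, and AMOTL2 was at 0.975 (0.672 to 1.43). The shares of all genes given above are not for such sites, and theirs were not counted.

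In KRT19 KO cells 4 of the 9 genes were higher in the cytoplasm past 2-fold. They were YAP1 at 3.62 (3.36 to 3.90), LATS1 at 3.35 (3.02 to 3.74), CTGF at 2.17 (1.33 to 3.68) and AMOTL2 at 2.15 (1.83 to 2.53), and none was lower. The CTGF call, on 87 and 21 reads, ended with unique reads, of which it had 42 and 5, and with a minimum of 200 reads. Over 9458 genes 24.4% were higher and 41.2% lower, with a median log2 ratio of -0.62 against 0.84 for the 9 genes. TEAD1 had 0.889 (0.862 to 0.917), CYR61 0.636 (0.509 to 0.796), AMOTL1 1.17 (0.939 to 1.47), WWTR1 1.27 (1.18 to 1.37) and LATS2 1.79 (1.63 to 1.98). At sites called in both fractions, YAP1 had 4.54 (4.10 to 5.04), LATS1 4.64 (3.97 to 5.45) and LATS2 2.68 (2.32 to 3.11), whereas AMOTL2 was at 0.991 (0.660 to 1.51) over 2 sites and CTGF at 1.42 (0.848 to 2.47) over 1, both below 2-fold. With 3'UTR reads only, 7 of 7 genes were higher in the cytoplasm, against 84.1% of all genes. Each library enters 2 of these 4 comparisons, so they are not independent of each other, and the larger shares of mitochondrial reads in both KRT19 KO libraries and of 3'UTR reads in KRT19 KO cytoplasm enter them. The part of these shares in the ratios was not tested.

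**Figure D5:**
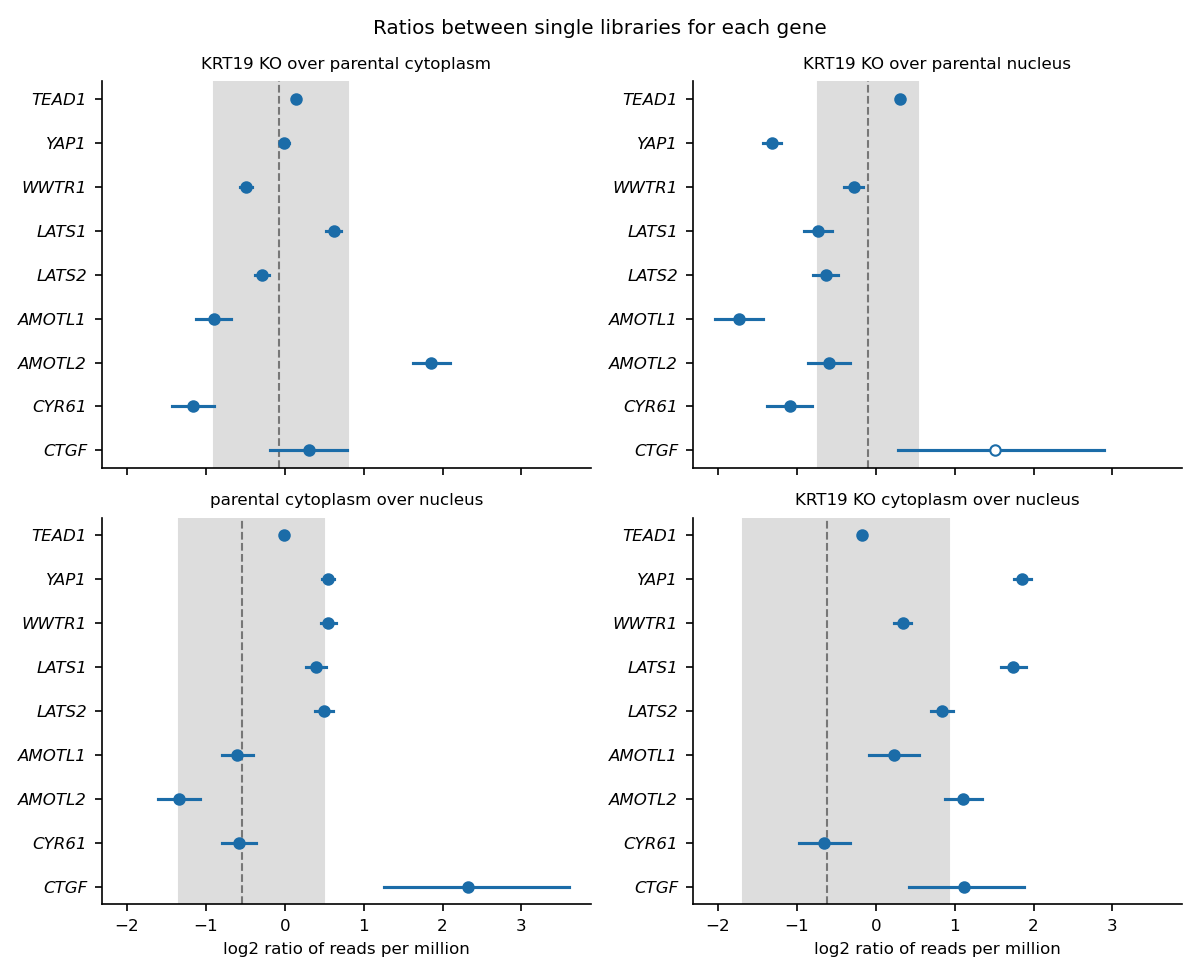
Log2 ratio of reads per 1000000 between 2 libraries (x axis) for each gene (y axis) in the 4 comparisons, over all annotation classes. Lines are 95% counting intervals, the open circle has fewer than 50 reads, and the dashed line and grey band mark the median and quartiles of all genes; AMOTL2 (1.85) and CYR61 (-1.16) lie outside the band between the cytoplasmic libraries, and AMOTL1 (-0.90) lies at its lower edge.

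Pooled over the 9 genes, 3'UTRs took a larger share of reads than over all clusters. Their 3'UTR clusters held 58.1% and 72.1% of their reads in the cytoplasm, against 31.6% and 47.4% over all clusters, and 12.1% and 12.5% in the nucleus, against 5.35% and 5.43%. Introns held 86.1% and 86.4% of their nuclear reads, against 67.0% and 59.7%. Over all genes a larger part of reads lay in other classes, so both shares could exceed those of all genes. By gene, in parental cytoplasm CYR61 had 72.8%, WWTR1 68.4%, YAP1 63.8%, CTGF 63.5%, LATS1 59.7%, LATS2 57.2%, TEAD1 53.9% and AMOTL2 36.3% of its reads in the 3'UTR, above the share of all clusters, and AMOTL1 lay below it with 5.68%. In KRT19 KO cytoplasm CYR61 with 42.8%, CTGF with 34.5% and AMOTL1 with 10.98% lay below the share of all clusters. In the parental nucleus 5 genes lay below the share of all clusters, as WWTR1 had 2.87%, LATS2 0.659% and AMOTL1 2.58% and CYR61 and CTGF had none. No test bears on this difference.

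The share of sites found in all 4 libraries was larger among these genes than among all genes, a description without a test, and TEAD1 held most of them. Among 1190 sites 53 had a cluster in each library, 33 of them in TEAD1, 9 in YAP1, 6 in WWTR1, 3 in LATS1 and 1 each in LATS2 and CTGF. In 3'UTRs 12 of 156 sites, or 7.69%, were found in all 4, against 2.59% over all genes. For TEAD1 this was 6 of 59, or 10.2%. In introns it was 41 of 961, or 4.27%, against 1.88%, and 27 of 429, or 6.29%, for TEAD1. Transcripts with more reads pass the cluster threshold in more libraries, and the part of read depth in these shares was not tested. Sites in both cytoplasmic libraries and neither nuclear one made up 31 of the 156 3'UTR sites, or 19.9% against 13.9% over all genes, and no 3'UTR site was found in both nuclear libraries alone, against 0.784% over all genes.

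The C-rich consensus that the study shows for HNRNPK was searched as words, on the transcript strand only. It comprised 6 words of 5 bases, each CCC directly preceded by A or T and then A, C or T, and words can overlap within a run of C. Of the clusters of the 9 genes 25.9% (22.2 to 29.9), 27.3% (23.3 to 31.8), 32.0% (27.9 to 36.4) and 32.7% (28.4 to 37.3) held at least 1 word, against 29.8%, 30.1%, 32.9% and 33.6% of all clusters (Wilson intervals). In the 3'UTR clusters of the cytoplasm the shares were lower, 17.0% (10.6 to 26.2) and 13.5% (8.36 to 21.1), where 24.8% and 25.3% of all 3'UTR clusters held a word. Those of the nucleus had 40.0% (25.6 to 56.4) and 27.8% (15.8 to 43.99), against 34.3% and 34.6%. Base composition went along with this, as C made up 21.0% of the bases of the cytoplasmic 3'UTR clusters of the 9 genes in both lines, against 23.7% and 24.2% in all 3'UTR clusters.

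Most copies of the motif in these 3'UTRs were not in a cluster. Of 138 words in the 9 annotated 3'UTRs, 39 (28.3%) lay within a site of any library, while the sites covered 17.9% of the 3'UTR length. TEAD1 had 16 of 45 words within sites, LATS1 9 of 19, AMOTL2 7 of 23, YAP1 4 of 6 and AMOTL1 1 of 30, and none of the 8 words of WWTR1 was covered. C made up 21.2% of covered and 18.6% of uncovered bases. A match of these letters is a description of the sequence and not a measured contact.

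The share of reads with a T-to-C change was 59.0% (58.3 to 59.6), 59.2% (58.6 to 59.8), 64.5% (63.6 to 65.3) and 73.0% (72.1 to 73.9) in clusters of the 9 genes and 66.4%, 59.6%, 72.9% and 76.7% in all clusters. By class it was 54.1% and 57.0% in their cytoplasmic 3'UTR clusters, close to the 53.4% and 55.1% of all 3'UTR clusters, and 65.0% in introns in parental cytoplasm, where all introns had 74.3%. Single leading sites ranged more widely. TEAD1 had 75.2% at 3431 nt and 42.6% at 6785 nt in KRT19 KO cytoplasm, and 26.3% at the intronic site chr11:12896386-12896421.

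Other genes of the pathway were counted by lists. The shares of all genes past 2-fold, beside which these counts are to be read, were 20.6% higher and 22.4% lower between the cytoplasmic libraries, 14.4% and 18.2% between the nuclear ones, 18.8% and 34.8% between the fractions of parental cells and 24.4% and 41.2% between those of KRT19 KO cells. The medians of the log2 ratio over all genes were -0.08, -0.10, -0.54 and -0.62 in this order. With so few genes per list, nothing particular to a list is read from these counts. Among 20 genes of the kinase core and its adaptors, all had a cluster. Past 2-fold, 2 of 18 with enough reads were higher and 2 lower in KRT19 KO against parental cytoplasm, 0 of 19 higher and 2 lower in the nucleus, 2 of 19 higher and 7 lower in cytoplasm against nucleus of parental cells, and 5 and 9 of 19 in KRT19 KO cells. The medians of log2 ratios were 0.11, -0.06, -0.69 and -0.59. MOB1A, the adaptor that activates LATS kinases, had 1311, 1165, 75.5 and 80.2 RPM and 23, 24, 7 and 7 3'UTR clusters. It was concentrated in the cytoplasmic libraries, as was to a lesser degree TAOK1, a kinase upstream of MST kinases, with 409, 657, 307 and 161 RPM and 30, 29, 10 and 5 3'UTR clusters. FRMD6, a membrane-associated adaptor, had 700, 465, 933 and 700 RPM and 6, 11, 4 and 3 3'UTR clusters. STK3, which encodes MST2, had 260, 383, 379 and 539 RPM and 2, 2, 0 and 0 3'UTR clusters.

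Of 11 genes for polarity and upstream membrane proteins, 10 had a cluster, all but CRB3. In KRT19 KO against parental cells, 0 of 7 were higher and 2 lower past 2-fold in the cytoplasm and 2 of 8 higher and 0 lower in the nucleus. In cytoplasm against nucleus 1 of 7 was higher and 0 lower in parental cells, and 2 of 6 were higher and 3 lower in KRT19 KO cells. The medians of the 4 comparisons were -0.67, -0.03, -0.11 and -0.52 for this list. PTPN14, a phosphatase that binds YAP1, had 795, 457, 855 and 465 RPM, and DLG1, a scaffold of cell polarity, had 635, 398, 855 and 806 RPM. MPP5, a partner of the Crumbs complex, had 281, 490.5, 202 and 181 RPM, and the protocadherin gene FAT1 had 73.0, 54.2, 112 and 111 RPM.

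The TEAD paralogs and VGLL cofactors had few 3'UTR clusters, apart from VGLL3. Of 7 genes, VGLL1 and VGLL2 had no cluster. TEAD4 had 142, 35.4, 439 and 180 RPM without any 3'UTR cluster, and TEAD2 had 5, 62, 0 and 73 reads. VGLL3, a cofactor that competes with the coactivators for TEAD, had 64.8, 318, 6.78 and 18.4 RPM, with 8 and 19 3'UTR clusters in the cytoplasm, and VGLL4 had 64.8, 32.3, 107 and 43.3 RPM. Past 2-fold, 2 of 4 were higher and 2 lower in KRT19 KO against parental cytoplasm, and 2 of 5 higher and 3 lower in the nucleus. In cytoplasm against nucleus 1 of 4 was higher and 2 lower in each line, and the medians were 0.65, -1.29, -1.18 and -0.80.

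Of 18 further target genes of YAP1 and TAZ, 17 had a cluster, all but IGFBP3. In KRT19 KO against parental cytoplasm 4 of 15 were higher and 2 lower past 2-fold, with a median log2 ratio of -0.64, and in the nucleus 2 of 13 were higher and 3 lower, with a median of -0.31. In cytoplasm against nucleus 1 of 13 was higher and 4 lower in parental cells, and 4 of 14 were higher and 5 lower in KRT19 KO cells, with medians of -0.45 and -0.38. CRIM1, a transmembrane protein that binds growth factors, had 1640, 521, 1878 and 668 RPM and was lower in the KRT19 KO library of both fractions. The membrane repair gene MYOF had 551, 352, 1383 and 1181 RPM and ASAP1, a regulator of ARF GTPases, had 356, 179, 601 and 525 RPM. PTPN14, named above, is also on this list.

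The genes most like TEAD1 in their number of 3'UTR clusters over the 4 libraries were CBX5, NUFIP2, PAWR, LPP and ABL2, of 8447 genes compared. Likeness was the root mean square difference in log2(3'UTR clusters + 1), which was 0.238, 0.265, 0.288, 0.299 and 0.301. CBX5 had 34, 53, 14 and 19 3'UTR clusters and LPP had 37, 41, 14 and 11. By level the TEAD1 3'UTR had 877, 1172, 243 and 249 RPM. That of ABL2 had 841, 2211, 286 and 234 RPM, near TEAD1 except in KRT19 KO cytoplasm. The PAWR 3'UTR had 1704, 4944, 205 and 117 RPM and that of LPP 679, 770, 74.9 and 59.3 RPM.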

How the data were processed

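PAR-CLIP of HNRNPK was analysed in 4 libraries, with 1 library per condition, and 17 RNA-seq samples were not analysed here. According to the methods, the authors demultiplexed reads with bcl2fastq 2.20.0 and cutadapt, collapsed identical reads, aligned them to hg19 and called and annotated clusters with PARalyzer in PARpipe. The submitters' processing notes name hg38, but all 1799 clusters of the 9 genes equalled the GRCh37 sequence at their positions. The authors deposited raw counts of reads, unique reads and conversions per cluster, without normalization. The fraction of reads converted, the mode score and the log10 conversion specificity, also deposited, were not used.

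Genes were followed by the deposited gene name and annotation class. Reads were summed per gene and divided by all reads in clusters of the library (RPM). Intervals were exact Poisson for sums, exact Clopper-Pearson (conditional on the total) for ratios and Wilson for shares. A gene counted as past 2-fold at a ratio of 2 or more with at least 50 reads in both libraries together. Clusters of 1 gene and strand were joined into sites at 1 nt of overlap. Gene models were the MANE transcripts of GENCODE v44lift37, which held all clusters of the 9 genes, and CYR61 and CTGF were matched as CCN1 and CCN2 through RefSeq synonyms.

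Members, gene lists and alternatives were chosen with earlier results of these data known. Named were all 9 genes, the 3 sites with the most RPM summed over the libraries (6 in the 3'UTR and 3 in introns for TEAD1), the 4 genes with the most reads of each list, and the 5 genes most like TEAD1. Other sites named, among them those without a counterpart in the other cytoplasmic library, were chosen after their values were seen. Alternatives covered minimum reads, conversion locations, unique reads, library totals, gene minimum, class, motif and overlap. Single sites of AMOTL1 are not reported here. Scripts were tested on simulated data. Python 3.11.15, numpy 2.4.6, pandas 2.3.3, scipy 1.17.1 and matplotlib 3.10.9 were used.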

Additional observations from a re-analysis of the deposited data

Results flagged for a closer look

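AMOTL2 was the 1 gene of the 9 whose ratio between cytoplasm and nucleus pointed in opposite directions in the 2 lines beyond 2-fold. In parental cells the log2 ratio was -1.34 and in the knockout it was 1.10, so that the lines differed by 2.44, which was not tested because each value rests on 1 library per fraction. At the sites called in both fractions the log2 ratios were -0.04 and -0.01. How many of all genes point in opposite directions in this way was not counted, so 1 of 9 has no background.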

How the results depend on the processing

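Of 79 values recomputed under another setting 50 stayed within counting error or, for counts, within 1.5 times of the value reported. Of 8 values under a setting chosen after seeing the data (sites called in both libraries) 5 did, and the others are given here. With clusters of at least 10 reads, the 9 genes held 304 clusters in parental cytoplasm, 263 in KRT19 KO cytoplasm and 277 in the KRT19 KO nucleus, the TEAD1 3'UTR held 10 in the KRT19 KO nucleus, and the T-to-C shares were 56.8%, 57.9%, 61.3% and 70.0% in the order of the report. With at least 2 conversion locations, 273 clusters were left in parental cytoplasm, 182 in parental nuclei and 145 in those of the knockout, 7 in the TEAD1 3'UTR in each nuclear library, and 35 sites in all 4 libraries. With at least 2 unique reads the TEAD1 3'UTR held 11 clusters in the KRT19 KO nucleus. Without the member cluster with the most reads the T-to-C share in the parental nucleus was 65.7%. With 3'UTR reads only, 1 gene was past 2-fold higher in KRT19 KO against parental nucleus, 6 in parental cytoplasm against nucleus and 7 in KRT19 KO cytoplasm against nucleus, where 26.7%, 79.0% and 84.1% of all genes were. Under this setting YAP1 and AMOTL2 were lower past 2-fold in KRT19 KO against parental nucleus. The lower quartile of that log2 ratio over all 1793 genes was -1.03, itself past 2-fold, so such values were not rare. With unique reads, or with a minimum of 200 reads, 0 genes were higher in parental cytoplasm against nucleus, as CTGF lost its call. CTGF also lost its call in KRT19 KO cytoplasm against nucleus under both settings, which left 3 genes higher. Without the 100 clusters with the most reads in the library totals, 5 genes were higher in that comparison. In KRT19 KO against parental nucleus, 4 genes were lower with unique reads. With the sites called in both libraries, 0 genes were lower in KRT19 KO against parental cytoplasm, 1 in KRT19 KO against parental nucleus and 3 in parental cytoplasm against nucleus. Higher in KRT19 KO against parental cytoplasm was still 1 gene, but CTGF in place of AMOTL2. For these shared sites the share of all genes past 2-fold was not counted. The motif share of 3'UTR clusters was 17.0%, 13.5%, 40.0% and 27.8%, and CCC was in 40.04%, 41.1%, 48.3% and 43.4% of all clusters of the 9 genes. The minima on reads, locations and unique reads, the 3'UTR settings and the shared sites keep fewer clusters by construction, and for the other settings the cause was not tested. No paired analysis was possible because the results come from no test and each condition has 1 library. Depth limits the genes with few reads, CTGF above all, and without replicates no value has an error between experiments.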
